A study of Homo sapiens with 3 samples.

Results

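The hairpins hsa-mir-106b, hsa-mir-93 and hsa-mir-25 are 3 of the 661 hairpins counted in small RNA libraries of MV4-11 cells, and each gave both of its mature arms, which are 6 of the 783 mature miRNAs counted. They were taken by name and not by a cutoff on their levels, with earlier results of these data known. MV4-11 is a human acute myeloid leukemia cell line with an internal tandem duplication in FLT3 and the fusion protein MLL-AF4. Every library came from cells infected with an empty vector (EV) lentiviral CRISPR-Cas9 construct, which delivers Cas9 but no guide against a gene, and grown for 2 weeks before RNA was taken. There were 3 replicate cultures in 1 group, with a genotype labelled WT, so no treated or uninfected cells stand beside them. The tests below compare, within libraries, the arms of a hairpin, the arm ratios of different hairpins, or the levels of hairpins of the cluster. All other values are levels, shares and their spread over cultures of a single line.

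A miRNA gene is transcribed into a long RNA from which Drosha cuts a hairpin, and Dicer then cuts the hairpin into a duplex of a 5p and a 3p arm. In most duplexes an Argonaute protein keeps mainly one arm, the guide, and the other is lost. Targets are chosen largely by pairing with the seed, bases 2 to 8 of the guide. The cluster lies inside MCM7, a subunit of the helicase that unwinds DNA at replication origins and a gene that E2F factors switch on as cells enter S phase. miR-106b and miR-93 are known to repress CDKN1A, an inhibitor of cyclin-dependent kinases, and miR-25 to repress BCL2L11, a protein that promotes cell death. The mRNA of MCM7 was not analysed here.

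In GENCODE 29 (GRCh38) all of the hairpins lie on the minus strand of chromosome 7, in the order of transcription MIR106B, MIR93, MIR25. MIR106B is at chr7:100093993-100094074, MIR93 at chr7:100093768-100093847 and MIR25 at chr7:100093560-100093643. Gaps of 145 and 124 bases separate them, and the whole cluster spans 515 bases. All 3 lie in intron 13 of the principal MCM7 transcript, which has 15 exons, and that intron is 771 bases long (chr7:100093402-100094172). In each of the 4 basic coding transcripts of MCM7 that span them, no exon overlaps a hairpin. The deposited tables carry no coordinates, so these positions come from the annotation alone.

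The 6 mature arms are shown first, from RefSeq (GRCh38.p14), because arm use and seed decide which family each read belongs to. Capitals mark the seed.
hsa-miR-106b-5p: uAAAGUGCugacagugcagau
hsa-miR-106b-3p: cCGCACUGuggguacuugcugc
hsa-miR-93-5p: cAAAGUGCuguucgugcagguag
hsa-miR-93-3p: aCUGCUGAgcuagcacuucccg
hsa-miR-25-5p: aGGCGGAGacuugggcaauug
hsa-miR-25-3p: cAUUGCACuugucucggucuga

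The 5p arms of miR-106b and miR-93 share the seed AAAGUGC, that of the miR-17 family, and miR-25-3p has the seed AUUGCAC, that of the miR-92 family. The other 3 arms each have a seed of their own. The family members with which the cluster shares its seeds, and which had a row in these libraries, are the following.
hsa-miR-17-5p: cAAAGUGCuuacagugcagguag
hsa-miR-20a-5p: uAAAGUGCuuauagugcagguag
hsa-miR-20b-5p: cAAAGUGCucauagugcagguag
hsa-miR-106a-5p: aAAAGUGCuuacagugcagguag
hsa-miR-92a-3p: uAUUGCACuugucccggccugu
hsa-miR-92b-3p: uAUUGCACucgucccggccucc
hsa-miR-32-5p: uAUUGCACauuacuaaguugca

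Compared base by base from the 5′ end, miR-106b-5p differed from miR-17-5p, miR-20a-5p and miR-106a-5p at 3 of 21 bases each, from miR-20b-5p at 4 and from miR-93-5p at 5. miR-93-5p was 3 bases of 23 from miR-20b-5p and 4 from miR-17-5p and miR-20a-5p. miR-25-3p differed from miR-92a-3p at 4 of 22 bases. Each arm of the cluster is made from 1 locus and had 1 row in the table, whereas miR-92a-3p is made from 2 loci whose rows were summed. How reads that matched several family members were assigned is not given in the sources used here.

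Depth was 12694823, 10991953 and 11682129 counts over mature miRNAs in replicates 1, 2 and 3. Replicate 1 stood apart from the other two. For 163 mature miRNAs no library had under 1000 counts, and over these the median log2 ratio of deposited FPKM (fragments per kilobase of transcript and per 1000000 reads) was 0.41 for replicate 2 over replicate 1, 0.52 for replicate 3 over replicate 1 and 0.12 for replicate 3 over replicate 2. None of the libraries was a copy of another. All 5 blood cell markers examined were present, at means of 110079 to 1100895 FPKM, with 415891, 607811 and 673280 counts in all. Of 10 markers of other cells, 9 had a row, at 71.6 to 55618 FPKM and with 10987, 17516 and 24305 counts in all, and miR-1-3p of muscle had none. The highest of those 9 was miR-124-3p of neurons. In bulk libraries fewer cells of a type and less RNA per cell cannot be told apart, and the part of other cells in the results was not tested.

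The cluster was abundant, and 2 of its 6 arms carried most of it. Its arms made up 1.07% of mature counts in replicate 1, 2.75% in replicate 2 and 3.59% in replicate 3. miR-93-5p was the highest arm with 570290 ± 347830 FPKM (SD, n = 3) and ranked 17 of 783 by mean. miR-25-3p followed with 418075 ± 167163 FPKM (SD, n = 3) and ranked 23.

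miR-93-5p, a guide of the miR-17 family, had 51984, 159877 and 222049 counts in replicates 1, 2 and 3. On the deposited scale this was 186094, 660992 and 863783 FPKM. Replicate 1 was the lowest by far, and there miR-93-5p ranked 34 of 783, against 18 and 15 in the others. miR-93-3p, the arm opposite it in the hairpin, had 576, 1697 and 2364 counts, or 2160, 7350 and 9634 FPKM. Both arms of miR-93 were therefore low in the same library.

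miR-25-3p, the guide that belongs to the miR-92 family, had 63786, 102661 and 139955 counts, or 239216, 444651 and 570358 FPKM in replicates 1, 2 and 3. Its rank moved less, from 29 in replicate 1 to 21 and 20. miR-25-5p had 828, 884 and 1298 counts, or 3261, 4020 and 5554 FPKM. Here too replicate 1 was the lowest on the deposited scale, but by a smaller step than for miR-93. Scaling by the median of ratios removes the shift common to most miRNAs. After it miR-25-5p was at 4142, 3680 and 4777 FPKM in replicates 1, 2 and 3, so replicate 1 was no longer its lowest.

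miR-106b, the first hairpin of the cluster, gave 2 arms at similar levels. miR-106b-5p, which carries the miR-17 family seed, had 7124, 24226 and 34204 counts, or 28053, 110175 and 146361 FPKM, a mean of 94863 ± 60622 (SD, n = 3). miR-106b-3p, which shares its seed with no other member, had 10920, 13092 and 19402 counts, or 40953, 56705 and 79069 FPKM, a mean of 58909 ± 19153 (SD, n = 3). In replicate 1 the 3p arm was the higher of the pair, and in replicates 2 and 3 it was the 5p arm. After scaling by the median of ratios miR-106b-3p was at 52029, 51900 and 67998 FPKM in replicates 1, 2 and 3. As for miR-25-5p, replicate 1 was then not its lowest.

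**Figure D1:**
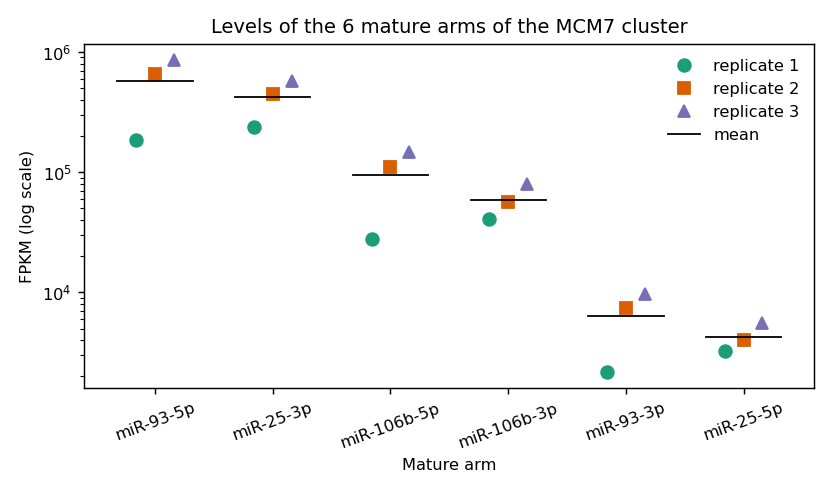
FPKM of each mature arm (log axis) in the 3 libraries, with a bar at the mean over libraries. Arms fall into 3 tiers that do not overlap, and within each tier replicate 1 has the opposite order from replicates 2 and 3.

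Ordered by mean FPKM the arms formed 3 tiers of 2. The lowest value of the upper tier, 186094 FPKM for miR-93-5p, was above the highest of the middle tier, 146361 FPKM for miR-106b-5p. The lowest value of the middle tier, 28053 FPKM for miR-106b-5p, was above the highest of the lower tier, 9634 FPKM for miR-93-3p. Within tiers the order was not resolved. miR-93-5p was below miR-25-3p in replicate 1 and above it in the others, miR-106b-5p was below miR-106b-3p in replicate 1 and above it in the others, and miR-93-3p (6381 ± 3830 FPKM, SD, n = 3) and miR-25-5p (4278 ± 1168 FPKM, SD, n = 3) did likewise. By mean FPKM the order in each tier was the same with any 1 replicate left out, so it was the order in replicate 1 itself that differed.

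Which arm these cells accumulate was asked next, library by library. Counts of the 5p and 3p arms of 193 pairs were fitted together with edgeR's quasi-likelihood test, with the library as a block. To be called, a pair needed a log2 ratio of at least 1 in size and an adjusted p (Benjamini-Hochberg) under 0.05. By this rule 161 of 193 pairs were called, 83.4%, with 80 toward 5p (41.5%) and 81 toward 3p (42.0%). Of the 3 hairpins of the cluster, 1 was called toward 5p, 1 toward 3p and 1 was not called, against that high background.

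miR-93 was called toward 5p, with a log2 ratio of 5p to 3p counts of 6.54 ± 0.21 (SE, edgeR adjusted p = 8.3e-06, higher in 3 of 3 libraries). The 5p arm held 98.9% of arm counts in each of the 3 libraries. The log2 ratio was 6.50, 6.56 and 6.55 in replicates 1, 2 and 3, an SD of 0.035. Over the 192 pairs with counts of both arms in every library the median SD was 0.52, and only 2 pairs varied less than miR-93. So while the level of miR-93-5p was 2.21 higher on the log2 FPKM scale in replicate 3 than in replicate 1, the ratio of its arms moved by under 0.1.

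miR-25 was called toward 3p, with a log2 ratio of 5p to 3p counts of -6.63 ± 0.26 (SE, edgeR adjusted p = 1.16e-05, lower in 3 of 3 libraries). Its 5p share was 1.28%, 0.854% and 0.919% of arm counts in replicates 1, 2 and 3, with Wilson 95% intervals of 1.20 to 1.37, 0.799 to 0.912 and 0.870 to 0.970. The interval of replicate 1 did not meet the others. By the size of the ratio miR-25 ranked 29 and miR-93 ranked 31 of 193, both well above the median size of 3.25.

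miR-106b was not called. Its log2 ratio of 5p to 3p counts was 0.37 ± 0.36 (SE, edgeR adjusted p = 0.355, higher in 2 of 3 libraries). Its 5p share was 39.5%, 64.9% and 63.8% of arm counts in replicates 1, 2 and 3, with Wilson 95% intervals of 38.8 to 40.2, 64.4 to 65.4 and 63.4 to 64.2. These intervals cover the counting error of reads only. The libraries carry no molecular identifiers, so the error in molecules may be larger. The higher arm thus changed between libraries by far more than the counting error of reads. Of 192 pairs, 16 (8.33%) had a higher arm that was not the same in all libraries, and miR-106b was 1 of them. Its SD of 0.85 on the log2 scale was the 46th largest of 192, and its ratio ranked 188 of 193 by size. Without replicate 1 the log2 ratio was 0.85 ± 0.15 (SE, edgeR adjusted p = 4.2e-08), still under the size required for a call. With TMM factors set over all columns of arms the direction turned, to -0.34 (edgeR adjusted p = 0.382).

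**Figure D2:**
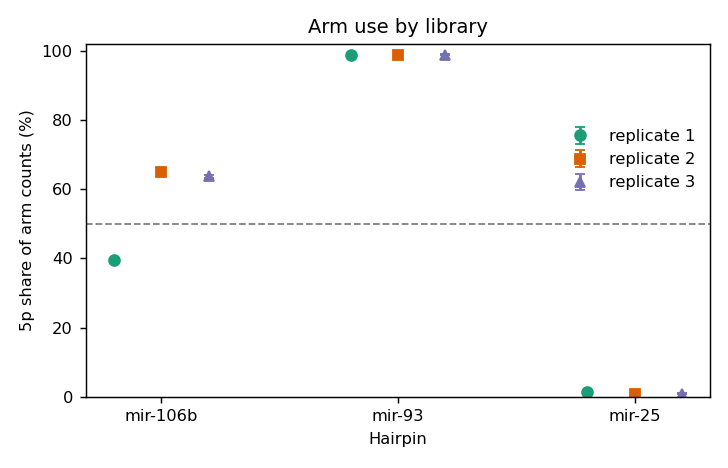
Share of the 5p arm in the summed counts of both arms (percent) for each hairpin and library, with Wilson 95% intervals that are mostly smaller than the symbols and a dashed line at equal use. mir-93 stays near 98.9% and mir-25 near 1%, while mir-106b is at 39.5% in replicate 1 and at 64.9% and 63.8% in the others.

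The other tested pairs with a guide of the same seed were set beside miR-106b. For miR-17, the first hairpin of the paralogous cluster on chromosome 13, the log2 ratio of 5p to 3p was 6.13 ± 0.43 (SE, edgeR adjusted p = 6.5e-05), and for miR-20a of the same cluster it was 9.85 ± 0.24 (adjusted p = 8.3e-06), both toward 5p in 3 of 3 libraries. The arm ratio of miR-93 exceeded that of miR-106b by 7.11, 5.67 and 5.74 on the log2 scale in replicates 1, 2 and 3, a mean difference of 6.17 ± 0.81 (SD, n = 3). That of miR-17 exceeded it by 5.76 ± 0.28 and that of miR-20a by 9.49 ± 0.74 (SD, n = 3). Each of these 3 differences had the same sign in 3 of 3 libraries, for which an exact two-sided sign-flip permutation test gives p = 0.25, the smallest that 3 libraries allow. Of the 4 tested pairs whose 5p arm has the AAAGUGC seed, miR-106b was the one not called. The spread of its ratio over libraries was not particular to it. For miR-17 the log2 ratio was 5.19, 6.35 and 6.84 in replicates 1, 2 and 3, an SD of 0.85 as for miR-106b. For miR-20a the SD was 0.11.

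**Figure D3:**
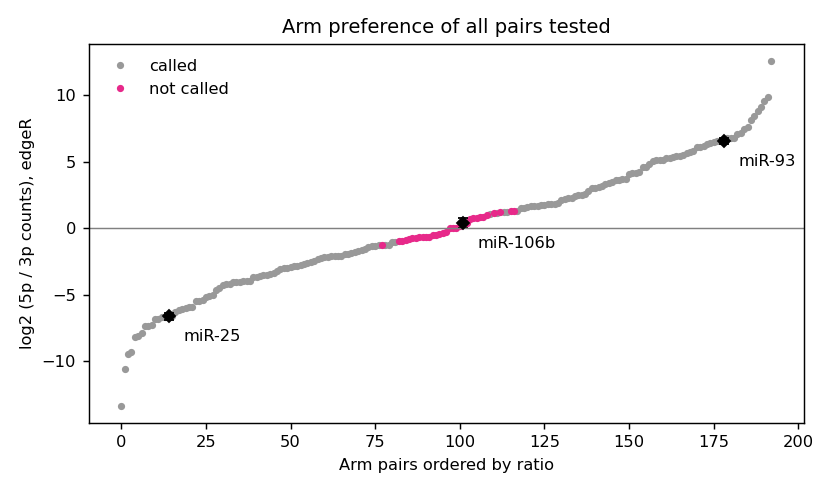
log2 ratio of 5p to 3p counts from edgeR for the 193 pairs tested, in order of the ratio, with called pairs in grey and others in pink. Diamonds with bars of 1 SE mark miR-25 at -6.63, miR-106b at 0.37 and miR-93 at 6.54.

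Few reads of the hairpins fell outside the arms. In the hairpin table mir-93 had 11, 14 and 20 counts beyond those of its arms in replicates 1, 2 and 3, a mean share of 0.0128%. mir-25 had 13, 18 and 15 such counts, a mean of 0.0160%. mir-106b had 41, 63 and 72, a mean of 0.176%. The median over the 92 hairpins with both arms listed once and at least 1000 counts in every library was 0.0557%, so mir-106b lay above it and the others below. By replicate the share of mir-106b was 0.227%, 0.169% and 0.134%, with Wilson 95% intervals of 0.167 to 0.307, 0.132 to 0.216 and 0.107 to 0.169.

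Because the hairpins lie in a single intron, their levels were compared within libraries. Hairpin level was 17546, 41861 and 56554 FPKM for mir-106b in replicates 1, 2 and 3, 52294, 185534 and 242445 for mir-93, and 61189, 113180 and 145251 for mir-25. They were not equal. mir-93 exceeded mir-106b by 2.98-, 4.43- and 4.29-fold in replicates 1, 2 and 3, and mir-25 exceeded it by 3.49-, 2.70- and 2.57-fold. With the arms that carry the family seeds in place of the hairpins, mir-93 exceeded mir-106b by 5.90- to 6.63-fold, and mir-25 exceeded it by 8.53-, 4.04- and 3.90-fold in replicates 1, 2 and 3. On either measure both were higher in 3 of 3 libraries (exact two-sided sign-flip permutation p = 0.25 for each, the smallest possible). mir-93 was 0.855-fold of mir-25 in replicate 1 and 1.64- and 1.67-fold of it in the others, and the mean log2 ratio of 0.41 ± 0.55 (SD, n = 3) was within the spread (exact permutation p = 0.5). As shares of the summed FPKM, mir-106b took 13.4%, 12.3% and 12.7%, mir-93 39.9%, 54.5% and 54.6%, and mir-25 46.7%, 33.2% and 32.7%. The share of the first hairpin was steady across libraries, and the split between the other two was not. These are ratios of reads, not of molecules.

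The summed level of the cluster was 131029, 340575 and 444250 FPKM in replicates 1, 2 and 3, a mean of 305285 ± 159565 (SD, n = 3). Its coefficient of variation was 52.3%, against a median of 26.5% over the 156 hairpins with at least 1000 counts in every library. Between replicates 2 and 3 alone it was 18.7%, against a median of 8.95%. After scaling by the median of ratios, which removes the shift common to most miRNAs, it was 40.5% against 20.2%, with 159583 FPKM in replicate 1 and 320864 and 387167 in the others. The cluster thus varied more than the typical hairpin on each of these scales.

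The arms did not share that variation equally. For replicate 2 over replicate 1 the log2 ratio of FPKM was 1.97 for miR-106b-5p and 1.83 for miR-93-5p, the 5th and 7th largest of 163 miRNAs. It was 1.77 for miR-93-3p. It was 0.89 for miR-25-3p, 0.47 for miR-106b-3p and 0.30 for miR-25-5p, against a median of 0.41. For replicate 3 over replicate 1 the order was the same, from 2.38 for miR-106b-5p to 0.77 for miR-25-5p. For replicate 3 over replicate 2 the 6 arms lay between 0.36 and 0.48, above the median of 0.12. The unequal change was therefore between replicate 1 and the others, and replicates 2 and 3 differed by nearly the same step for every arm.

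The other listed guides of the miR-17 family were also well above replicate 1, and those of the miR-92 family differed among themselves. For replicate 2 over replicate 1 the log2 ratio of FPKM was 2.15 for miR-17-5p and 2.03 for miR-20a-5p, the 3rd and 4th largest of 163. It was 2.40 for miR-20b-5p and 1.45 for miR-106a-5p, which had under 1000 counts in replicate 1. All 6 listed guides of the miR-17 family, from 3 chromosomes, were thus at least 1.45 on the log2 scale above replicate 1. The chromosome X guides miR-106a-5p and miR-20b-5p had only 480 and 186 counts in replicate 1. miR-106a-5p differs from miR-17-5p at 1 base, and how such reads were assigned is not given, so these loci may not be independent. In the miR-92 family the ratio was 0.19 for miR-92a-3p and 0.25 for miR-92b-3p, below miR-25-3p, and 1.46 for miR-32-5p. The 3p arm of miR-20a moved with its guide at 1.84, as in miR-93, and that of miR-17 moved less, at 0.99. Across the 140 of these 163 miRNAs with a RefSeq sequence, GC content had a Pearson's r of -0.16 and a Spearman's rho of -0.14 with this ratio, a weak relation over miRNAs of the same libraries. The summed counts of the blood markers and of the markers of other cells were also lowest in replicate 1. Single markers did not all follow the sums. miR-143-3p (4308, 2755 and 2670 counts) and miR-122-5p (82, 47 and 45) were highest in replicate 1, and miR-223-5p (25619, 25279 and 30591) was lowest in replicate 2. The largest part of the sum of other cells was miR-124-3p, with 5145, 12461 and 19065 counts. The part of these cells in the shifts was not tested.

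**Figure D4:**
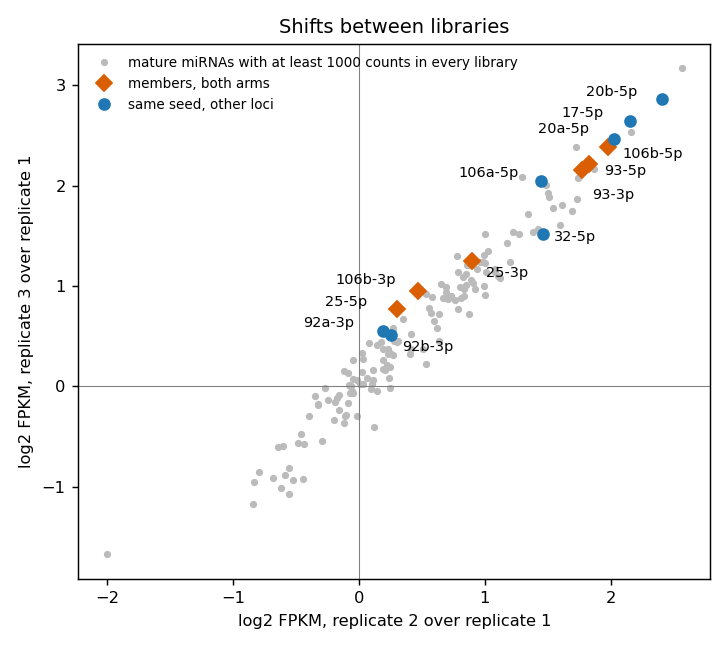
log2 ratio of FPKM of replicate 2 (x axis) and replicate 3 (y axis) to replicate 1, a denominator that both axes share. Grey points are 163 miRNAs that no library had under 1000 counts of, diamonds the 6 arms of the cluster and circles miRNAs of the same seeds. miR-106b-5p, miR-93-5p and miR-93-3p sit at the upper end with the miR-17 family. miR-106b-3p and miR-25-5p lie near the median of 0.41 on the x axis, at 0.47 and 0.30. On the y axis they lie at 0.95 and 0.77, above the median of 0.52.

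The seed families were then summed to see what part of each the cluster supplies. Of the miR-17 family, 6 of 8 RefSeq members were listed, with 244703, 860602 and 1247751 counts, or 1.93%, 7.83% and 10.7% of mature counts in replicates 1, 2 and 3. The cluster gave 24.2%, 21.4% and 20.5% of them, with Wilson 95% intervals of 24.0 to 24.3, 21.3 to 21.5 and 20.5 to 20.6. The mean was 22.0% ± 1.89 (SD, n = 3). miR-93-5p made up 19.2% ± 1.81 and miR-106b-5p 2.82% ± 0.085 of the family (SD, n = 3), behind miR-20a-5p with 47.3% ± 0.096 and miR-17-5p with 30.4% ± 1.90. The family as a whole thus held 1.93% of mature counts in one library and 10.7% in another, while the share of each listed member differed by under 4 percentage points.

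Of the miR-92 family, 4 of 6 RefSeq members were listed, with 422409, 467379 and 634470 counts in replicates 1, 2 and 3. miR-25-3p gave 15.1%, 22.0% and 22.1% of them, with Wilson 95% intervals of 15.0 to 15.2, 21.8 to 22.1 and 22.0 to 22.2, a mean of 19.7% ± 3.99 (SD, n = 3). miR-92a-3p, summed over its 2 loci, gave 75.6% ± 4.91, and miR-32-5p and miR-92b-3p gave 2.99% ± 1.07 and 1.66% ± 0.109 (SD, n = 3). miR-92a-3p had 343413 counts in replicate 1 and 338598 in replicate 2, while miR-25-3p had 63786 and 102661. The split of this family therefore differed between libraries where that of the miR-17 family was nearly kept.

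**Figure D5:**
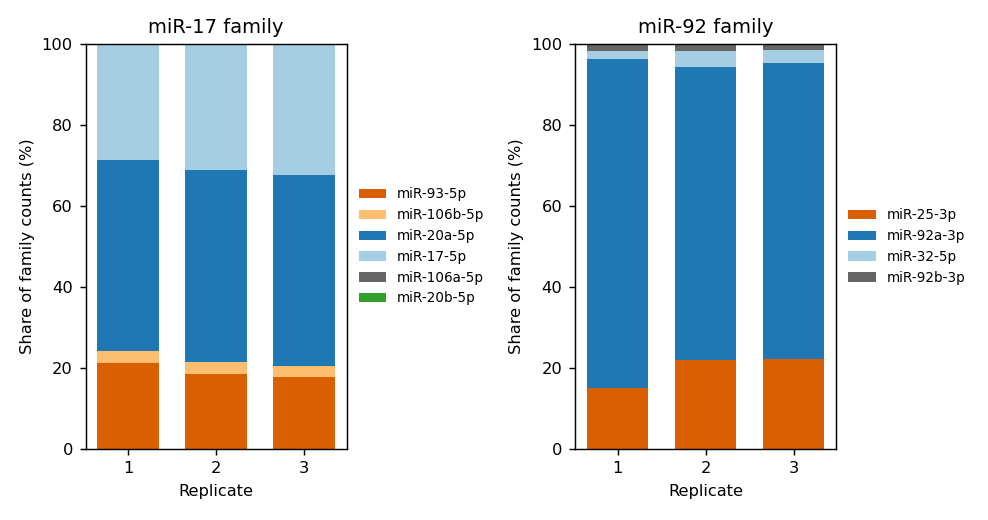
Share of each listed miRNA in the counts of its seed family (percent) by replicate, with bars that start at 0 and sum to 100. Arms of the cluster are at the foot of each bar in orange: 24.2%, 21.4% and 20.5% of the miR-17 family (both orange shades) and 15.1%, 22.0% and 22.1% of the miR-92 family.

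The MCM7 cluster is one of 3 paralogous clusters, and the others are that of miR-17 to miR-92a on chromosome 13 and that of miR-106a to miR-363 on chromosome X. The summed hairpin level of the MCM7 cluster was 32.5%, 31.1% and 30.2% of that of the chromosome 13 cluster in replicates 1, 2 and 3, a mean of 31.3% ± 1.16 (SD, n = 3). The chromosome 13 sum holds mir-92a-1 and mir-19b-1, whose guides are also made on chromosome X. In replicate 1 mir-92a-1 had 178934 counts and mir-92a-2 of chromosome X had 165214. The percentages therefore depend on how reads of such guides were divided between loci, which is not given. The sums of the MCM7 and chromosome 13 clusters varied between libraries by similar amounts, with coefficients of variation of 52.3% and 54.7%. On chromosome X 5 of 6 hairpins were listed and mir-363 was not. Most of the level listed there is that of mir-92a-2 and mir-19b-2, whose guides are also made on chromosome 13. The remaining mir-106a, mir-18b and mir-20b summed to 711, 2508 and 3582 FPKM, below the lowest hairpin of the MCM7 cluster in each library.

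The hairpins whose levels over the 3 libraries were most like those of the summed cluster were also sought. Log2 FPKM was centred on its mean over libraries, and 145 hairpins outside the paralogous clusters with at least 1000 counts in every library were compared. The nearest were the 3 copies of mir-124, with root mean square differences of 0.027, 0.036 and 0.042 on the log2 scale, against a median of 0.56. The copies give an identical mature sequence and share reads, so they are not 3 independent matches, and mir-339, named after its value was seen, came next at 0.049. With 3 libraries many hairpins fit closely, and 8 were within 0.1.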

How the data were processed

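Small RNA of 3 replicate cultures was sequenced by the authors on an Illumina machine after a New England Biolabs library preparation. Per the labels, the submitters' processing notes name Novoalign 2.08.03 and the builds hg19 and mm10, with no role given. Both deposited tables hold raw read counts over miRBase 21 mature miRNAs (851 rows) and hairpins (661 rows). They also hold FPKM computed by the authors, for which the divisor of the 6 arms was their RefSeq length less 1 base, which raises FPKM by 4.55% to 5.00%. Trimming and the handling of reads with several sites are not given in the sources used here. Rows of a name were summed, leaving 783 names.

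Levels are FPKM as deposited. Arms were compared on counts with edgeR 4.0.16 (R 4.3.3) over all pairs with both arms listed, filterByExpr at a minimum of 10 counts, library totals shared by both arms and the library as a block. limma 3.58.1 on log2(FPKM ratio) with pseudocounts of 1 and 10, DESeq2 1.42.0, other scalings and filters and leaving out each replicate were alternatives. The arm test was also run on simulated counts. These held no arm shift particular to a single library, so the simulation does not bear on the case of miR-106b. The remaining steps used pandas 2.3.3, scipy 1.17.1, numpy 2.4.6 and Python 3.11.15, with matplotlib 3.10.9 for figures. Intervals are Wilson 95% intervals. P-values measure only the spread between these cultures. Those of the arm test take this spread in part from the fit over all pairs, not from the named pair alone.

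The miRNAs named are the arms and hairpins of the cluster, listed members of their seed families, hairpins of the paralogous clusters, and the 3 hairpins nearest in level over libraries. Fixed cell type markers, mir-339 and the pairs listed in the closing observations are named besides, the last 2 after their values were seen. Members, lists and tests were chosen with earlier results of these data known. Mature miRNAs without a row were given no level.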

Additional observations from a re-analysis of the deposited data

How the results depend on the processing

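Of 192 values recomputed under an alternative, 162 stayed within a set margin. The margin was the same side of a threshold, 1 SD between replicates or, for counts and coefficients of variation, 1.5 times. It was wide, and the summed cluster level of 305285 FPKM counted as the same at 392412 FPKM without replicate 1. The log2 arm ratio of miR-106b was the 1 that reversed, to -0.34 with TMM factors over all columns (adjusted p = 0.382), and leaving out each replicate in turn gave 0.10 to 0.85. The calls of miR-93 and miR-25 held under every alternative. At least 10 counts of each arm in every library left 148 pairs, of which 124 were called, the fewest in number. The most were 166 of 194 without replicate 1. In the main test 161 of 193 were called, and without replicate 2 it was 138 of 193. With those TMM factors 164 of 193 pairs were called, and the split moved to 68 toward 5p and 96 toward 3p. With the arms that carry the family seeds in place of hairpins, the mean log2 ratio was 2.63 for mir-93 to mir-106b (1.94 with hairpins) and 2.36 for mir-25 to mir-106b (1.53 with hairpins), both shifts over 1 SD, since the hairpin value of mir-106b also holds its 3p arm. The summed cluster level was 24625 counts per 1000000 when that unit replaced FPKM, a change by construction. Its coefficient of variation ran from 18.7% without replicate 1 to 77.0% without replicate 2, so its size rests on replicate 1. Another 25 values that moved were of single arms and hairpins, either by that change of unit or in the coefficient of variation, and the cause was not tested. The library was a replicate block in the arm test because both arms come from the same RNA. Without the block the log2 arm ratio was 0.62 for miR-106b, 6.55 for miR-93 and -6.68 for miR-25. Then 162 of 193 pairs were called, and no call of these hairpins changed. No paired analysis was possible between conditions because the series has 1 group. With 3 libraries, exact sign-flip permutation tests cannot go below p = 0.25.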

Other observations

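The change of the higher arm in miR-106b was looked at among other well covered pairs, a comparison made after its value was seen. Of 82 pairs with at least 100 counts of each arm in every library, 8 had a higher arm that was not the same in all libraries: miR-106b, miR-212, miR-223, miR-339, miR-374a, miR-642a, miR-671 and miR-708. In 8 of 8 it was replicate 1 that differed from the other two. In 6 of them the 3p arm was the higher in replicate 1, as in miR-106b, and in miR-212 and miR-223 it was the 5p arm. The arms of miR-642a were nearly equal in replicate 1, with 373 counts of 5p and 384 of 3p. For miR-223, a miRNA of myeloid cells, the 5p and 3p arms had 25619 and 24432 counts in replicate 1, 25279 and 64562 in replicate 2, and 30591 and 78858 in replicate 3. For miR-339 they had 4288 and 4910 counts, 16594 and 5664 counts, and 22844 and 5835 counts in the same order.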
